A study of Drosophila melanogaster with 6 samples.

Results

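The genes described here are 10 iron-sulphur cluster assembly genes of *Drosophila melanogaster*, named by symbol from the 17525 genes listed in the deposited transcript tables. Of these, 6 act in mitochondria (Nfs1, bcn92, IscU, fh, Grx5 and Las) and 4 in the cytosol (CIAPIN1, Nubp1, Nubp2 and Ciao1). All 10 were found in the tables, and all 10 had a mean of at least 1 FPKM (fragments scaled to transcript length and to the fragments mapped in the library) over the libraries, the minimum for testing. They were picked with their FPKM in both groups already known, so the difference between groups is described for them and not tested. The RNA came from wing imaginal discs, the larval epithelia that give rise to the adult wing and notum. In the control group, 3 libraries carried the driver MS1096-Gal4 alone, and in the dNKAP RNAi group 3 libraries carried the same driver with an RNAi transgene against dNKAP (CG6066, the fly homolog of the nuclear protein NKAP). MS1096-Gal4 acts mainly in the wing pouch, so each disc also holds cells with little or no hairpin, and in such whole-tissue RNA a change in the number of cells of a type and a change in RNA per cell cannot be told apart.

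Iron-sulphur clusters are cofactors of respiratory complexes, aconitase, lipoate synthase and of many enzymes of DNA replication and repair. In mitochondria a cysteine desulphurase delivers sulphur to a scaffold protein on which the cluster is built, after which monothiol glutaredoxin and targeting factors hand it on. A separate cytosolic machinery depends on a product exported from mitochondria and loads clusters onto cytosolic and nuclear proteins. These roles are known in detail from yeast and human homologs, and the fly genes are placed in the pathway largely by homology.

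The libraries held 4.14 to 6.44 gigabases of aligned depth (read depth times transcript length), of which 1.92 to 3.85 megabases fell on the members. CG6066 was at 22.8 to 26.6 FPKM in controls and at 11.4 to 14.0 FPKM in dNKAP RNAi. Of 7 wing disc markers, 6 had a mean of at least 1 FPKM, with summed levels of 430.1 to 434 FPKM in controls and 468 to 483 FPKM in dNKAP RNAi, while en was listed at 0 throughout. Over 6506 tested genes the median log2 difference was 0.03, and 209 genes were higher and 33 lower in dNKAP RNAi (limma, adjusted p under 0.05 over all genes tested), which is 3.21% and 0.507% of them. Without dNKAP RNAi replicate 1 or replicate 3, 126 and 135 genes were higher. After quantile normalization 187 were higher and 62 lower. Log2 differences throughout are dNKAP RNAi minus control, taken on log2(FPKM + 0.5), so they understate what happens to genes of low level. Whether the replicates are separate animals or crosses is not stated, so errors and p-values describe spread among these libraries that could be technical.

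The members of the core complex that makes the cluster (Nfs1, bcn92, IscU and fh) were higher in every dNKAP RNAi library than in any control in the values as deposited. For fh the margin was small, with the lowest dNKAP RNAi library 1.01-fold above the highest control. The glutaredoxin Grx5 and the targeting protein Ciao1 overlapped between groups. So did ND-ACP, described below, which also joins this complex but is no member here. In all, 8 of 10 members had groups that did not overlap, each with dNKAP RNAi higher, against 17.3% of all tested genes in that direction (7 of 10 after quantile normalization, when fh overlapped). The 8 include CIAPIN1, whose value is uncertain because of an overlapping gene. None of the 10 had dNKAP RNAi lower without overlap, against 11.2% of tested genes. The median log2 difference over the members was 0.73, or 0.69 with IscU left out. As the members were picked on this comparison, these counts describe them and support nothing further.

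**Figure D1:**
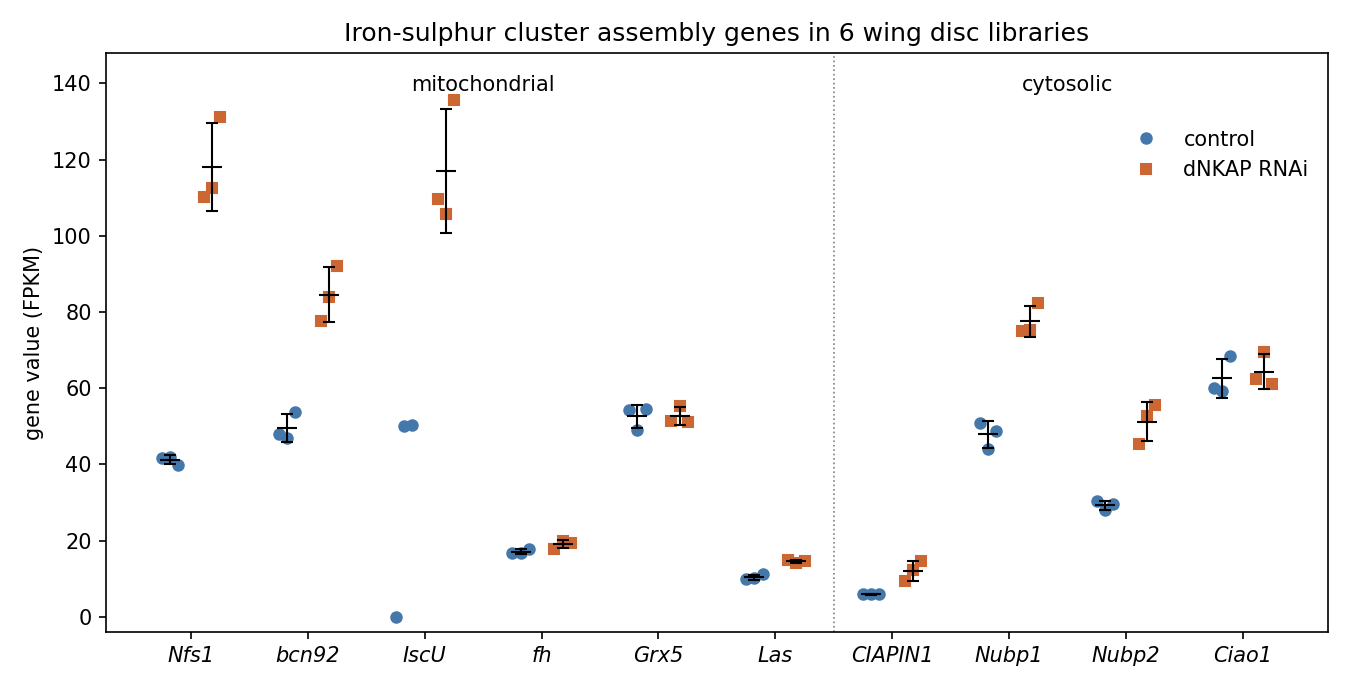
Gene values (FPKM, linear axis) of the 10 members in 3 control libraries (circles) and 3 dNKAP RNAi libraries (squares), with mean and SD in black. No mean is drawn for IscU in controls because it is listed at 0 in control replicate 1; Nfs1 lies at 39.8 to 42.0 FPKM in controls and 110.1 to 131 FPKM in dNKAP RNAi, while Grx5 and Ciao1 overlap.

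Nfs1 (FBgn0032393; chromosome 2L, 11999654 to 12001244, plus strand, dm6) encodes the cysteine desulphurase, the enzyme that takes sulphur from cysteine. Its level was 41.7, 42.0 and 39.8 FPKM in control replicates 1 to 3 and 110.1, 113 and 131 FPKM in dNKAP RNAi replicates 1 to 3. The control libraries were tightly grouped, and even the lowest dNKAP RNAi library stood 2.62-fold above the highest control. Mean levels were 41.2 ± 1.20 FPKM and 118 ± 11.6 FPKM (SD, n = 3 each), a ratio of 2.87 and a log2 difference of 1.50 (SE 0.08). This difference lay at percentile 94.1 of all tested genes. The authors' confidence bounds within libraries were also far apart, with a highest upper bound of 44.7 FPKM in controls and a lowest lower bound of 104 FPKM in dNKAP RNAi.

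bcn92 (FBgn0013432; chromosome X, 2148463 to 2149647, minus strand) encodes the small LYR-motif protein, ISD11 in yeast, that binds and stabilizes the desulphurase. It was at 47.9, 46.8 and 53.8 FPKM in controls, against 77.7, 83.9 and 92.0 FPKM in dNKAP RNAi. The groups did not overlap, though the step was smaller than for its partner Nfs1. Mean levels were 49.5 ± 3.76 FPKM and 84.6 ± 7.15 FPKM (SD, n = 3 each), a log2 difference of 0.77 (SE 0.09). Because the partners differed in the size of the step, Nfs1 over bcn92 within a library went from 0.870, 0.897 and 0.739 in controls to 1.42, 1.34 and 1.43 in dNKAP RNAi. In controls bcn92 was thus the more abundant transcript of the pair per length, and in dNKAP RNAi Nfs1 was.

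IscU (FBgn0037637; chromosome 3R, 8822849 to 8824177, minus strand) encodes the scaffold on which the cluster is assembled. It was listed at 0, 50.1 and 50.3 FPKM in control replicates 1 to 3 and at 109.8, 106 and 136 FPKM in dNKAP RNAi replicates 1 to 3. The controls above 0 were close to each other, and each dNKAP RNAi library lay at least 2.10-fold above the higher of them. The value of 0 in control replicate 1 can be a failed estimate, since 144 tested genes were at 0 in exactly 1 library and at 10 FPKM or more in all others, 24 of them in control replicate 1. Without control replicate 1 the log2 difference was 1.21, whereas with the 0 included it was 3.43, a value set by that library.

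IscU was also the member whose transcript rows differed most between libraries. The reference transcript (955 bases) alone carried the gene in control replicate 2 and dNKAP RNAi replicate 1. Newly assembled transcripts that share a splice junction with it held 23.8% of the gene value in control replicate 3 and 12.3% in dNKAP RNAi replicate 2, with 1 such transcript each. In dNKAP RNAi replicate 3 they held 84.9%, in transcripts of 821 and 863 bases at 28.3 and 86.9 FPKM, and the reference transcript was left with 20.5 FPKM. Such transcripts appeared in libraries of both groups and their share overlapped between groups.

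**Figure D2:**
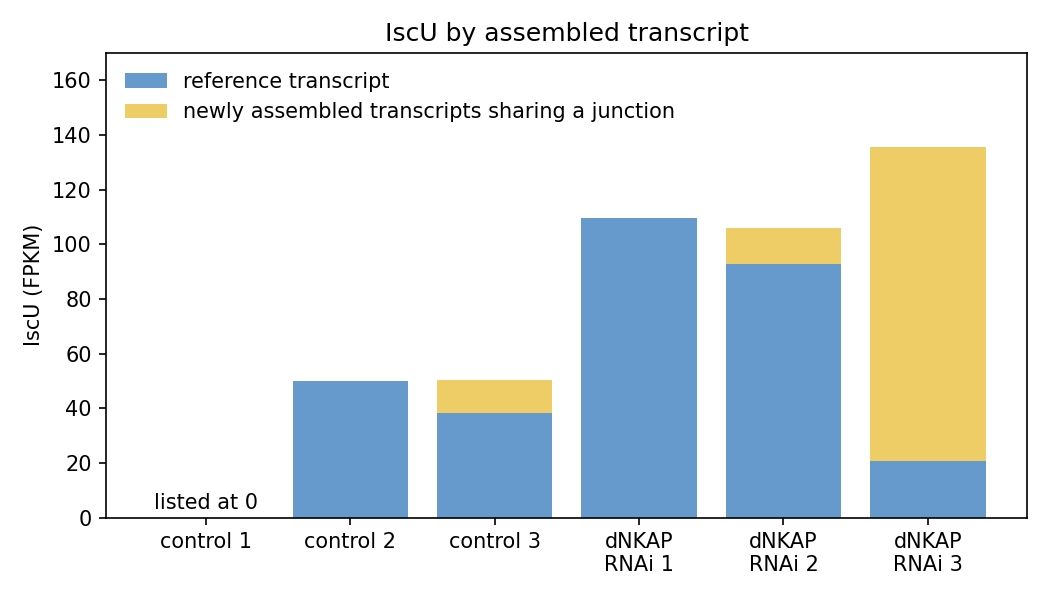
Stacked bars give IscU in FPKM for each library, split into the reference transcript and newly assembled transcripts that share a junction with it. The total is 50.1 and 50.3 FPKM in control replicates 2 and 3 and 106 to 136 FPKM in dNKAP RNAi, and the new transcripts hold 84.9% of it in dNKAP RNAi replicate 3.

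fh (FBgn0030092; chromosome X, 9148080 to 9149071, minus strand) encodes frataxin, which speeds sulphur transfer in the desulphurase complex and whose human homolog is reduced in Friedreich ataxia. Its level was 16.7, 16.6 and 17.7 FPKM in controls, against 17.9, 19.9 and 19.5 FPKM in dNKAP RNAi. The groups touched without overlapping, and after quantile normalization they overlapped. The means, 17.0 ± 0.624 and 19.1 ± 1.06 FPKM (SD, n = 3 each), gave a log2 difference of 0.16 (SE 0.07), and the within-library bounds overlapped, at up to 20.1 FPKM in controls and down to 15.4 FPKM in dNKAP RNAi. Of the transcripts listed for fh, the one of 923 bases carried the whole value and the one of 927 bases was at 0 in every library. Relative to Nfs1, fh went from 0.414 ± 0.0277 in controls to 0.162 ± 0.0141 in dNKAP RNAi (SD, n = 3 each).

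Grx5 (FBgn0030584; chromosome X, 14837471 to 14838198, minus strand) encodes the mitochondrial monothiol glutaredoxin that receives a newly made cluster from the scaffold. It was at 54.4, 49.1 and 54.4 FPKM in controls, against 51.4, 55.3 and 51.2 FPKM in dNKAP RNAi. The groups overlapped fully, with means of 52.6 ± 3.05 and 52.6 ± 2.34 FPKM (SD, n = 3 each) and a log2 difference of 0.00040 (SE 0.07). Relative to Nfs1, Grx5 was at a ratio of 1.17 to 1.37 in controls and of 0.390 to 0.491 in dNKAP RNAi.

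Las (FBgn0029158; chromosome 3L, 20430605 to 20432361, minus strand) encodes lipoate synthase, itself an iron-sulphur enzyme, which makes the lipoyl cofactor of pyruvate and 2-oxoglutarate dehydrogenase. It was at 9.77, 10.05 and 11.1 FPKM in controls, against 14.9, 14.2 and 14.7 FPKM in dNKAP RNAi. Every dNKAP RNAi library lay above every control, and the spread within dNKAP RNAi was the smallest of the members at 2.70% of the mean. Mean levels were 10.3 ± 0.706 FPKM and 14.6 ± 0.395 FPKM (SD, n = 3 each), a log2 difference of 0.48 (SE 0.08), which was 0.36 after quantile normalization. At this level the bounds within libraries came close, with 12.5 FPKM as the highest upper bound in controls and 12.6 FPKM as the lowest lower bound in dNKAP RNAi.

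In the cytosolic branch the scaffold pair was higher in dNKAP RNAi, and the targeting protein was not. The electron-transfer protein was also listed higher, but its value is uncertain because of an overlapping gene, as described below. Nubp1 (FBgn0032597; chromosome 2L, 16732550 to 16733624, plus strand), 1 of the paired P-loop NTPases that hold the nascent cytosolic cluster, was at 50.7, 44.0 and 48.8 FPKM in controls, against 75.1, 75.2 and 82.3 FPKM in dNKAP RNAi. In dNKAP RNAi replicate 2 this value is the sum of a pair of rows with the same length and the same 37.6 FPKM. Mean levels were 47.8 ± 3.45 FPKM and 77.5 ± 4.12 FPKM (SD, n = 3 each), a log2 difference of 0.69 (SE 0.08).

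Nubp2 (FBgn0037011; chromosome 3L, 20526576 to 20527910, plus strand) encodes the partner of Nubp1. It was at 30.3, 28.0 and 29.5 FPKM in controls, against 45.4, 52.8 and 55.5 FPKM in dNKAP RNAi. The groups did not overlap, with means of 29.3 ± 1.16 and 51.2 ± 5.20 FPKM (SD, n = 3 each) and a log2 difference of 0.79 (SE 0.09). For this pair the proportion overlapped between groups, as Nubp1 over Nubp2 was 1.67, 1.57 and 1.65 in controls and 1.65, 1.43 and 1.48 in dNKAP RNAi.

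CIAPIN1 (FBgn0001977; chromosome 2L, 15036293 to 15038861, minus strand), the homolog of yeast Dre2 that passes electrons to the cytosolic machinery, was the lowest member in controls. Its level was 5.89, 5.83 and 6.07 FPKM in controls, against 9.33, 12.2 and 14.5 FPKM in dNKAP RNAi. It had the tightest controls of the members with 3 values above 0 (2.18% of the mean) and the widest dNKAP RNAi group (21.6%). Mean levels were 5.93 ± 0.129 FPKM and 12.01 ± 2.59 FPKM (SD, n = 3 each), a log2 difference of 0.94 (SE 0.17). Exons of yellow-c on the opposite strand cover 50.8% of the exonic bases of CIAPIN1, and yellow-c was itself at 25.7 to 32.7 FPKM in controls and 37.4 to 49.1 FPKM in dNKAP RNAi. Since strand use is not given in the sources used here, reads of these genes cannot be told apart in the overlap and the value of CIAPIN1 is uncertain.

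Ciao1 (FBgn0033972; chromosome 2R, 14853863 to 14855048, minus strand) encodes a WD40 protein of the complex that docks clusters onto target proteins. It was at 60.2, 59.2 and 68.4 FPKM in controls, against 62.4, 69.6 and 61.1 FPKM in dNKAP RNAi, the last being the sum of a pair of rows at 30.6 FPKM each. The groups overlapped, with means of 62.6 ± 5.07 and 64.4 ± 4.56 FPKM (SD, n = 3 each) and a log2 difference of 0.04 (SE 0.09). Relative to Ciao1, CIAPIN1 went from 0.0950 ± 0.00542 to 0.187 ± 0.0451 and Nubp1 from 0.766 ± 0.0680 to 1.21 ± 0.133.

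**Figure D3:**
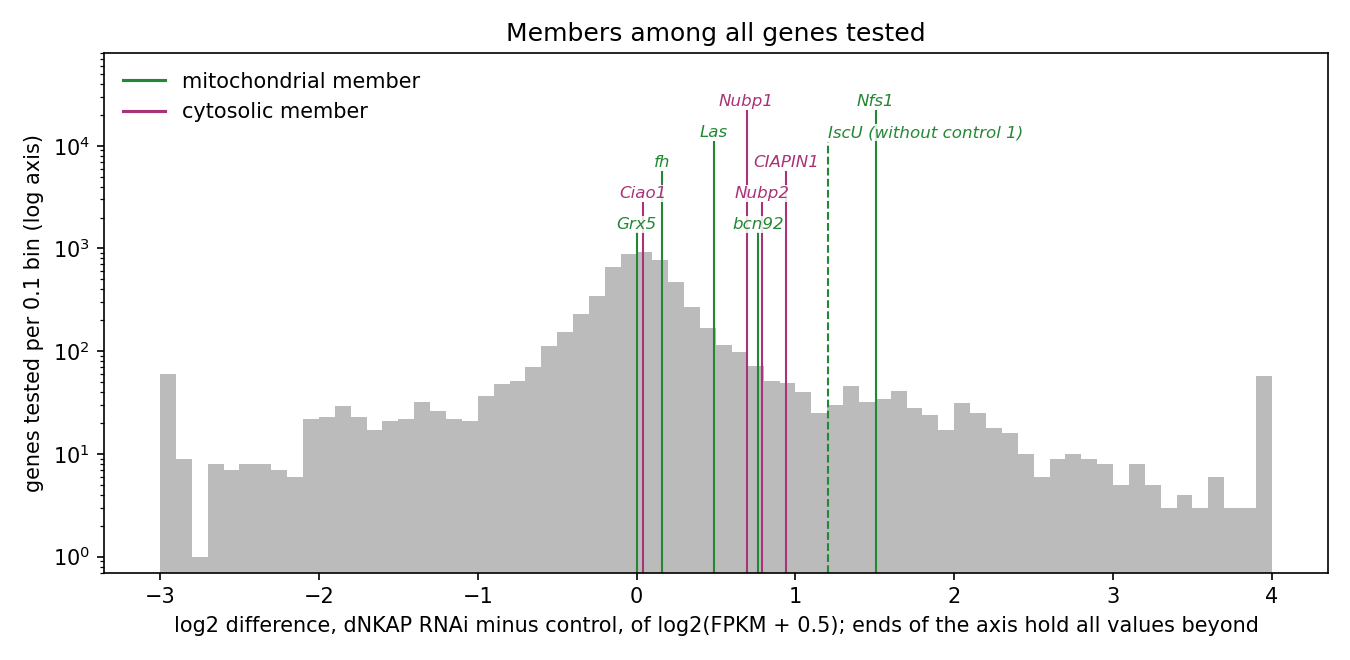
Histogram of the log2 difference (dNKAP RNAi minus control, log2(FPKM + 0.5) scale) over 6506 tested genes, on a log count axis, with vertical lines at the mitochondrial (green) and cytosolic (purple) members. IscU is drawn dashed at 1.21, its value without control replicate 1; Grx5 and Ciao1 lie near the centre of all genes and Nfs1, at 1.50, farthest out.

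Each branch held members that overlapped between groups and members that did not. Among mitochondrial members 5 of 6 did not overlap between groups, and among cytosolic members 3 of 4, each with dNKAP RNAi higher. Over all tested genes that share was 17.3%, and the mitochondrial member fh overlapped after quantile normalization. The 3 cytosolic members include CIAPIN1, whose value is uncertain. Summed over the members other than IscU, mitochondrial transcripts were at 170.5, 165 and 177 FPKM in controls, against 272, 286 and 309 FPKM in dNKAP RNAi. Cytosolic transcripts summed to 147, 137 and 153 FPKM in controls and to 192, 209.8 and 213 FPKM in dNKAP RNAi. The mitochondrial over the cytosolic sum, a ratio that scaling of a library leaves unchanged, was 1.16, 1.20 and 1.16 in controls and 1.42, 1.36 and 1.45 in dNKAP RNAi. Nfs1 alone made up 22.5% to 25.5% of that mitochondrial sum in controls and 39.4% to 42.5% in dNKAP RNAi. With Nfs1 left out as well, the direction reversed, and the ratio was slightly lower in every dNKAP RNAi library than in any control. The median log2 difference was 0.63 over mitochondrial members and 0.74 over cytosolic members, so the higher ratio does not describe the mitochondrial branch as a whole.

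**Figure D4:**
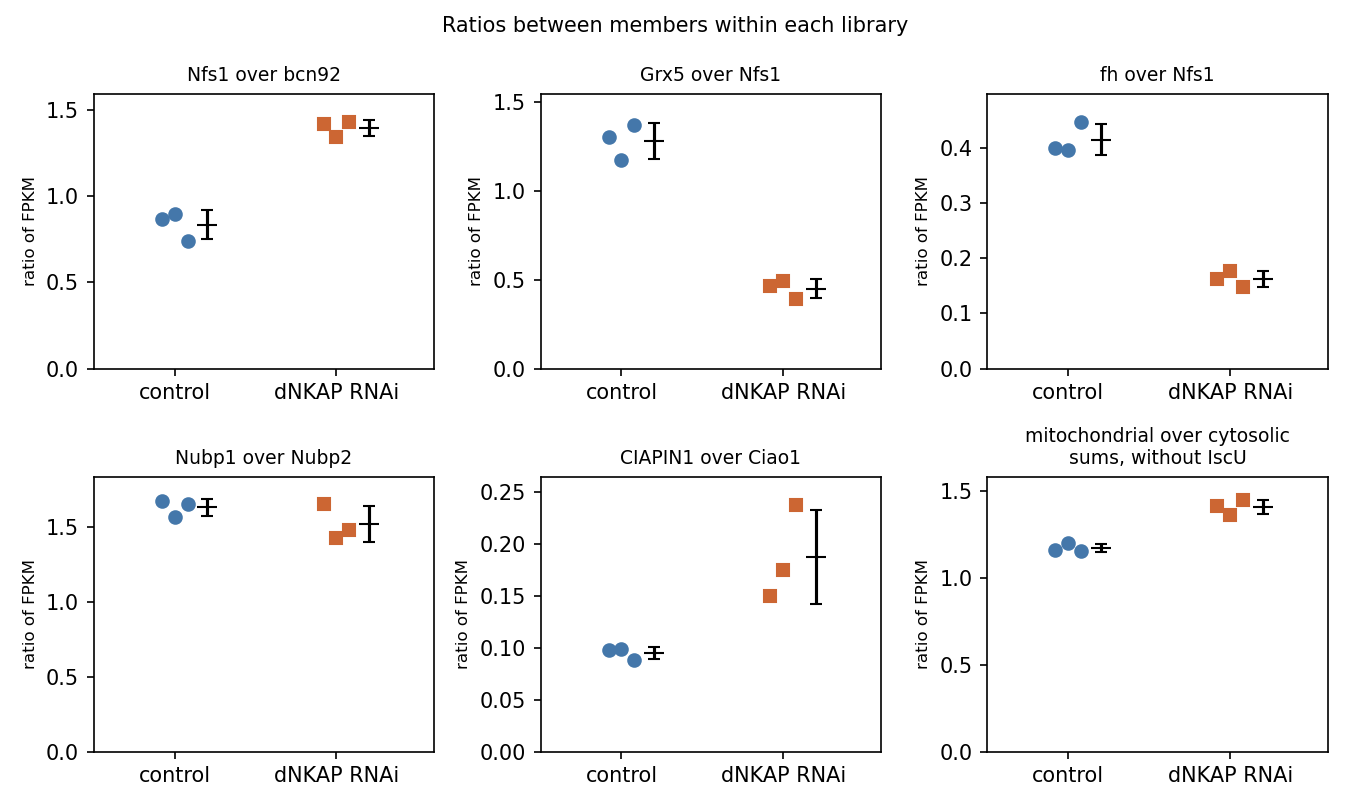
Ratios of FPKM between members within each library, with 3 control libraries as circles, 3 dNKAP RNAi libraries as squares and mean with SD in black; every axis starts at 0. Nfs1 over bcn92 lies at 0.739 to 0.897 in controls and 1.34 to 1.43 in dNKAP RNAi, while Nubp1 over Nubp2 overlaps between groups.

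The order of levels per length differed between the groups. In controls Ciao1 stood highest, at 59.2 to 68.4 FPKM, and Grx5, IscU, Nubp1 and bcn92 followed, each overlapping the next in its range over libraries above 0. Below them Nfs1, Nubp2, fh, Las and CIAPIN1 were each clear of the next. In dNKAP RNAi Nfs1 and IscU stood highest and overlapped, bcn92 and Nubp1 overlapped below them, and Ciao1 came next. Nubp2 and Grx5 overlapped after it, as did Las and CIAPIN1 at the low end. Of the 8 members whose groups did not overlap, 6 had their highest value in dNKAP RNAi replicate 3. That library had the lowest CG6066, at 11.4 FPKM, and the highest level of the fat body marker Fbp1, at 561 FPKM. Lsp1alpha, the other fat body marker above 0, was lowest there among the dNKAP RNAi libraries, at 8.72 FPKM. Any link of these levels to the members was not tested. Without that library the median log2 difference over the members was 0.68.

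The members lie apart in the genome and their gene structures are short. They fall on chromosome arms X, 2L, 2R, 3L and 3R, and each has 1 transcript in the annotation, with 1 to 5 exons. Nubp1 and Ciao1 have a single exon. No member has another within 2000 bases. Besides yellow-c, exons of Pgd overlap 104 bases of bcn92, exons of Ercc1 overlap 86 bases of Ciao1, those of Hacd1 overlap 11 bases of Nfs1 and those of glu overlap 8 bases of Nubp1. Pgd was listed at 0 in every library, so its reads cannot be set beside those of bcn92.

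Other genes of the pathway and its client proteins were mostly not past the threshold, and 1 of the 48 tested from 64 listed was. It was RFeSP, the Rieske protein of complex III, listed at 0 in every control, with 33.5, 40.2 and 33.6 FPKM in dNKAP RNAi replicates 1 to 3. Its call rests on a group listed at 0 throughout, and it reached the minimum mean for testing through dNKAP RNAi alone, so it is given as values only. The whole dNKAP RNAi value came from newly assembled transcripts, of 770, 786 and 789 bases, since the reference transcript of 1118 bases was listed at 0 in all 6 libraries. With exact matches alone, or among genes above 0 in every library, RFeSP was therefore not tested. Over the 39 listed genes above 0 in every library 0 were past the threshold in limma and 10 had an unadjusted p under 0.05, against 20.9% of all tested genes above 0 in every library, and their median log2 difference was 0.0025. Of those 39, 9 had dNKAP RNAi higher without overlap and 3 lower. Over all tested genes, which also hold genes listed at 0 in some libraries, the shares were 17.3% and 11.2%. Both the 9 and the 10 with an unadjusted p under 0.05 include Prat2, which reached the minimum mean through dNKAP RNAi alone.

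Further mitochondrial assembly genes gave 0 of 12 past the threshold in limma, with a median log2 difference of 0.27. That median includes genes listed at 0 in some libraries. Among the 9 above 0 in every library the middle value was 0.05. Of the 12, 4 had an unadjusted p under 0.05. Over all tested genes 19.0% had an unadjusted p under 0.05, the share against which this count and those of the lists that follow are to be read. The most abundant were ND-ACP, the acyl carrier protein that also joins the desulphurase complex, at 223 ± 26.0 and 210.3 ± 11.3 FPKM with overlap between groups, and CG33672 at 79.6 ± 14.8 and 76.2 ± 11.5 FPKM (SD, n = 3 each). Named after their values were seen, 4 genes of this list had dNKAP RNAi higher without overlap: the mitochondrial iron importer mfrn (35.6 ± 1.07 and 43.2 ± 4.70 FPKM), CG32500 (12.8 ± 1.43 and 16.5 ± 0.381 FPKM), the ferredoxin gene Fdx2 (14.6 ± 1.68 and 17.7 ± 0.450 FPKM) and the co-chaperone gene Hsc20 (1.74 ± 0.268 and 2.75 ± 0.243 FPKM). Their limma adjusted p were 0.211, 0.138, 0.245 and 0.231. The chaperone gene Hsc70-5 was listed at 88.5 FPKM in dNKAP RNAi replicate 1 and at 0 elsewhere, and Fdx1 at 25.6 and 25.2 FPKM in dNKAP RNAi replicates 1 and 2 and at 0 elsewhere. MagR, CG13623 and Alr were listed at 0 in all 6 libraries, so a large part of this branch gave no usable value.

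Of the further cytosolic assembly genes 0 of 3 tested passed in limma, and 0 had an unadjusted p under 0.05, with a median log2 difference of -0.05. galla-2, a partner of Ciao1 in the targeting complex, was at 16.8 ± 2.88 and 14.5 ± 0.456 FPKM, and Mms19, another part of that complex, at 14.6 ± 3.09 and 16.6 ± 0.289 FPKM (SD, n = 3 each). Both overlapped between groups, like Ciao1.

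Among mitochondrial proteins that carry clusters, 1 of 9 tested passed, the RFeSP given above as values only, and the list median was -0.06. The complex I subunit gene ND-20 was at 149 ± 15.6 and 150.4 ± 9.69 FPKM (SD, n = 3 each), and Cisd2 at 190, 169 and 180 FPKM in controls, against 204, 162 and 0 FPKM in dNKAP RNAi. Of the cytosolic and nuclear proteins with clusters 0 of 14 passed in limma and 3 had an unadjusted p under 0.05, with a median of 0.01. The 3 include Prat2, named after its values were seen, which reached the minimum mean for testing through dNKAP RNAi alone. The ribosome recycling factor gene pix was at 162 ± 11.0 and 159 ± 4.11 FPKM and the purine synthesis gene Prat at 53.9 ± 6.42 and 57.9 ± 4.99 FPKM (SD, n = 3 each).

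Lipoylated enzymes and their lipoyl transferases, downstream of Las, gave 0 of 5 past the threshold in limma and 1 at an unadjusted p under 0.05, with a median of -0.15. CG5214, the E2 subunit of 2-oxoglutarate dehydrogenase, was at 112 ± 6.18 and 88.6 ± 3.67 FPKM (SD, n = 3 each; limma adjusted p = 0.0631) and Lipt2 at 28.8 ± 1.78 and 25.9 ± 2.50 FPKM. Of the iron handling genes 0 of 5 passed in limma and 1 had an unadjusted p under 0.05, with a median of 0.11. The ferritin heavy chain gene Fer1HCH was at 234 ± 74.2 and 247 ± 43.5 FPKM and the light chain gene Fer2LCH at 122 ± 17.5 and 195 ± 48.8 FPKM (SD, n = 3 each).

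The summed level of the fat body markers differed between the groups without overlap. Of 5 listed, Lsp1beta, Lsp2 and Fbp2 were at 0 in every library, while Lsp1alpha and Fbp1 were not, and the summed level was 0.991 to 41.8 FPKM in controls and 152 to 570 FPKM in dNKAP RNAi. Fbp1 was at 25.1, 10.9 and 0.542 FPKM in control replicates 1 to 3 and at 62.5, 137 and 561 FPKM in dNKAP RNAi replicates 1 to 3. Lsp1alpha overlapped between groups, at 16.7, 2.17 and 0.449 FPKM in controls, against 97.9, 15.2 and 8.72 FPKM in dNKAP RNAi. Whether fat body content differed between the groups, and any part of it in the differences of the members, was not tested. Marker sums for muscle precursors (36.5 to 52.0 and 28.4 to 41.0 FPKM), salivary gland (3.53 to 4.62 and 1.13 to 5.11 FPKM) and haemocytes (1.63 to 10.4 and 5.55 to 12.6 FPKM) overlapped between groups. The tracheal sum was 532.5 to 786 FPKM in controls and 454 to 531.8 FPKM in dNKAP RNAi, with serp listed at 0 in control replicate 3 and in all dNKAP RNAi libraries.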

How the data were processed

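Per the labels' protocols, wing disc RNA was isolated with Trizol and read on an Illumina NextSeq. The authors deposited 1 transcript table per library, in the layout Cuffcompare writes, per the file headers; its FPKM values and their confidence bounds were used as deposited. The deposited coverage column, a signal, gives read depth per transcript base without scaling to the library, per the file headers. The submitters' processing notes name FastQC, HTSeq, DESeq and the build dm6; versions, aligner and strand use were not given. None of the columns used holds read counts.

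A gene's value was the sum of FPKM over class codes =, c, j and o; no member had rows in other classes. Names, coordinates and exons came from the Ensembl annotation of BDGP6 (dm6 coordinates) and a table of FlyBase names, which matched 17429 of 17525 genes, 149 through their transcripts. Of the listed pathway names, CG8446 had more than 1 match, and 1 other is not reported here. Groups were compared over all genes with limma 3.58.1 (R 4.3.3), fitting log2(FPKM + 0.5) under a mean-variance trend, a minimum mean of 1 FPKM, Benjamini-Hochberg adjustment and a two-sided threshold of 0.05. Python 3.11.15 with pandas 2.3.3, matplotlib 3.10.9 and numpy 2.4.6 made the tables and figures. The fit was checked on data with known changes. The confidence bounds spanned 5.32% to 14.7% of the value on each side for members with 1 expressed row in each library and cover the estimate within a library only.

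The members and gene lists were chosen with earlier results of these data known. Besides the members, the genes named are CG6066 and, from each list, those past the threshold and the 2 most abundant; others are marked where they appear, and genes listed at 0 or overlapping a member were also named after their values were seen. Alternatives were other scalings, pseudocounts, filters and class codes, a replicate block and leaving out each library.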

Additional observations from a re-analysis of the deposited data

How the results depend on the processing

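Among members other than IscU, only fh and Las moved by more than the spread between replicates, to 0.08 and 0.36 after quantile normalization. The filters, class codes and replicate block cannot change these members' values, and leaving out 1 library cannot move them past that spread. Only the scalings and pseudocounts could therefore have shown a move of that size. IscU, whose spread is set by the 0 in control replicate 1, ran from 1.21 to 4.54. The members' median was 0.68 to 0.77 over all alternatives. The log2 change of the mitochondrial over the cytosolic sum was 0.51 with control replicate 1's IscU at 0, 0.37 to 0.59 leaving out 1 library and 0.26 without IscU, an alternative chosen after seeing the data. The value without IscU depended on Nfs1. Genes lower in dNKAP RNAi, 33 in all, numbered 62 after quantile normalization, 58 after median-ratio scaling, 60 with no filter and 59 among genes above 0 in every library, and 28 to 34 leaving out 1 library. Genes higher, 209 in all, numbered 126 to 159 leaving out 1 library. Other iron-sulphur genes called higher numbered 0 among genes above 0 in every library and with exact matches alone, and 1 to 3 leaving out 1 library; the 3 came without dNKAP RNAi replicate 3, where Fdx1 and muc, listed at 0 in all controls, joined RFeSP. With the replicate number as a replicate block, 72 genes were higher and 5 lower, and Ercc1 had a limma adjusted p of 0.0740. Same-numbered libraries correlated at 0.0170 to 0.0683 in their deviations and differently numbered ones at -0.116 to 0.0550. The ranges overlap and the values are small, so whether the numbers pair the samples cannot be told from them. The causes were not tested. Among members with 1 expressed row, depth limits fh, Las and CIAPIN1 most, with bounds of over 10% of the value on each side.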

Other observations

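Ercc1, the partner of the Xpf endonuclease in DNA repair, has exons that overlap 86 bases of Ciao1 on the opposite strand. Named after its values were seen, it was at 23.7, 22.3 and 22.9 FPKM in controls, against 35.6, 35.7 and 36.1 FPKM in dNKAP RNAi, a log2 difference of 0.63 (SE 0.05, limma adjusted p = 0.00430), while Ciao1 overlapped between groups. The limma adjusted p was 0.00435 to 0.00988 under the scalings, pseudocounts, filters and class codes and 0.0174 to 0.0272 leaving out 1 library, and it did not pass the threshold with the replicate number as a block. Prat2, the less abundant of the Prat paralogs, was at 0.298 ± 0.253 FPKM in controls and 2.75 ± 1.96 FPKM in dNKAP RNAi (SD, n = 3 each). It reached the minimum mean for testing through dNKAP RNAi alone, so it is given as values only.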
